A study of Mus musculus with 28 samples.

Results

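Ephrins are membrane-bound ligands, and Eph receptors are the receptor tyrosine kinases that bind them on a neighbouring cell. Here 6 of these genes were followed through the blood-forming vessels of the mouse embryo, 3 ligands (Efnb2, Efna1 and Efnb1) and 3 receptors (Ephb4, Ephb2 and Ephb3). They were taken by gene symbol, and each symbol matched 1 row among the 24015 genes of the count table.

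Because both partners sit in membranes, the ligand-bearing cell and the receptor-bearing cell can each receive a signal on contact. Class A ephrins are held by a lipid anchor and bind mainly EphA receptors, whereas class B ephrins cross the membrane and bind mainly EphB receptors. In vessels, ephrin-B2 is known as a marker of arterial endothelium and its receptor EphB4 as a marker of venous endothelium. Blood stem cells arise from the wall of the embryonic dorsal aorta, an artery, through hemogenic endothelium, in what is called the endothelial-to-hematopoietic transition.

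RNA was sequenced from 28 libraries of 100 sorted cells each, from embryos of the genotype labelled 23GFP transgenic, which every population shares. They fall into 9 populations. At E8.5 there are 3 libraries of endothelium (EC) and 4 of hemogenic endothelium (HE). The later populations have 3 libraries each: EC, HE and pro-HSC/HPC on E9.5, and on E10.5 again EC and HE, with pre-HSC I and pre-HSC II beside them. The 2 earlier days carry the tissue label PAS+VU and the last day AGM+VU, so that tissue and day cannot be told apart between E9.5 and E10.5. The sources used here do not say how the transgene is driven, how the sort gates were set or whether replicates came from separate litters. The design text calls the replicates biological, and p-values measure the spread between these libraries.

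Library totals ran from 16308918 to 31405603 counts, and 3 counts correspond to 0.108 to 0.188 CPM, the unit used here for counts after TMM scaling, which sets libraries to one size and takes most genes as equal between them. All 10 endothelial markers were detected in every population, with a summed level of 1519 to 4155 CPM in the libraries of EC and HE, 2472 to 2899 for pro-HSC/HPC, 1137 to 1578 for pre-HSC I and 361 to 470 for pre-HSC II. The 10 blood markers summed to 13.8 to 87.6 CPM in EC and HE, 388 to 504.5 for pro-HSC/HPC, 719 to 982 for pre-HSC I and 1508 to 1695 in pre-HSC II. Of the other marker lists, neural genes summed to at most 6.88 CPM and macrophage genes to at most 60.8. Mesenchyme and smooth muscle genes varied within populations, between 26.2 and 951 CPM, and erythroid genes stood at 11.8, 12120 and 4058 CPM in the pro-HSC/HPC libraries and reached 1404 CPM among those of pre-HSC I.

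The start-site regions of the 3 abundant genes are shown first, since the results below turn on Efnb2, Efna1 and Ephb4 and the letters let a reader compare them. Each run is the 250 bases before the annotated start, from RefSeq on GRCm38.p6, written 5′ to 3′ on the gene's strand. All 6 genes had an entry, and the first of 2 starts is shown for Efna1. Capitals mark matches, on either strand, to 6 short motifs that were searched: TGGGAA (the core bound by the Notch effector RBPJ), GATAA (GATA factors), ACAAT (Sox factors), CACCC (KLF factors), CCGGAA (ETS factors) and TATAAA (the TATA box). The regions are chr8:8661243-8661492, minus strand, for Efnb2, chr3:89280952-89281201, minus strand, for Efna1 and chr5:137349859-137350108, plus strand, for Ephb4.
Efnb2: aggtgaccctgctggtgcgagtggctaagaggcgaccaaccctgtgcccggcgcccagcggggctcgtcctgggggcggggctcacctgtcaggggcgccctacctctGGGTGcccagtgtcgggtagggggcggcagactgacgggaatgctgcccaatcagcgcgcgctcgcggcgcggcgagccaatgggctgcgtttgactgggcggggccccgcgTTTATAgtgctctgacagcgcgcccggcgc
Efna1: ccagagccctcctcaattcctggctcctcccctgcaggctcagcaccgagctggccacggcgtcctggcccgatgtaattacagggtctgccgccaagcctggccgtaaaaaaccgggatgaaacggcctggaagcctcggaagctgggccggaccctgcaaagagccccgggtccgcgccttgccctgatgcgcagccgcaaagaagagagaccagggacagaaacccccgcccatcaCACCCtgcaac
Ephb4: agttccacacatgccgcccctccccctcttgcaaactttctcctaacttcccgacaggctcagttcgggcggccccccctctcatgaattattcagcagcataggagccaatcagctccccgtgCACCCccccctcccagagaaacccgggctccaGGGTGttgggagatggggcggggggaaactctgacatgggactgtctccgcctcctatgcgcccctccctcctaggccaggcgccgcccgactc

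These regions were rich in G and C, at 72.0% for Efnb2, 64.8% for Efna1 and 64.0% for Ephb4, against a median of 52.4% over 32851 regions of the same length. CpG pairs numbered 27, 16 and 12, against a median of 6. Efnb2 held 1 match to the TATA box on the reverse strand, at 30 to 25 bases before the start, and 12.4% of all regions held a match on either strand. A CACCC match lay in all 3 regions, and 52.0% of all regions hold one. The RBPJ, GATA, Sox and ETS motifs had no match in these 3 windows, where 21.6%, 22.6%, 27.7% and 12% of all regions have one. Upstream of Efnb1 the RBPJ motif occurred 2 times, and upstream of Ephb2 the ETS motif occurred 1 time on the reverse strand. Matches are a description of letters and do not show binding.

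In the mm9 coordinates of the count table, Efnb2 (chromosome 8, 8617439 to 8660773) has 5 exons over 4319 bases, Efna1 (chromosome 3, 89075652 to 89084873) 6 exons over 1642 bases and Efnb1 (chromosome X, 96331469 to 96344330) 5 exons over 3258 bases. Ephb4 (chromosome 5, 137791337 to 137815750) has 17 exons over 4361 bases, Ephb2 (chromosome 4, 136209525 to 136391926) 16 exons over 4857 bases and Ephb3 (chromosome 16, 21204868 to 21223377) 16 exons over 4145 bases. No exon of the 6 genes overlapped an exon of another gene in the table. Efna1 lies in a cluster with 2 other class A ligands on the same strand of chromosome 3, Efna3 (89118873 to 89126801) and Efna4 (89137315 to 89141950).

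Efnb2, the arterial class B ligand, was highest in HE of E10.5 and lowest in pre-HSC II. In E8.5 EC the libraries read 23.6, 22.1 and 51.6 CPM, a mean of 32.4 ± 16.6. Every ± beside a mean is an SD over all libraries of that population. In E8.5 HE the 4 libraries read 95.5, 128, 527 and 270.1 CPM (255 ± 196). All 4 HE libraries lay above all EC libraries, but they spread widely, with replicate 3 the highest. In pooled cells, fewer cells of a type and less RNA per cell cannot be told apart, here and in all later comparisons.

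At E9.5 the EC libraries read 129, 91.8 and 184 CPM for Efnb2 (135 ± 46.3) and the HE libraries 398.5, 299.6 and 516 (405 ± 108). Libraries of pro-HSC/HPC read 414, 319.6 and 455 CPM (396 ± 69.5), within the range of HE. EC lay below both other groups in every library. Of all genes, 7.78% lay higher in HE than in EC without overlap, and the share was not taken for pro-HSC/HPC against EC.

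At E10.5 the EC libraries read 133, 148.5 and 114 CPM for Efnb2 (132 ± 17.2), the HE libraries 640.1, 568 and 673 (627 ± 53.7). Pre-HSC I read 222, 165 and 186 CPM (191 ± 29.0) and pre-HSC II 32.6, 6.22 and 20.0 (19.6 ± 13.2). None of these 4 groups overlapped another, and pre-HSC I lay between HE and EC. Of all genes, 11.4% lay higher in HE than in EC without overlap, 12.4% lower in pre-HSC I than in HE, and 9.94% lower in pre-HSC II than in pre-HSC I. The share was not taken for either pre-HSC group against EC. In the order of the 9 means, only 2 neighbouring pairs had separate libraries, E10.5 HE above E9.5 HE and E10.5 EC above E8.5 EC. Of all genes, 12.9% lay higher in E10.5 HE than in E9.5 HE without overlap, and the share was not taken for E10.5 EC against E8.5 EC.

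Efna1, a lipid-anchored ligand that binds EphA2 and is made by endothelium, followed a similar course. The libraries of E8.5 EC read 142, 94.4 and 165 CPM (134 ± 36.2), those of E8.5 HE 443, 289.6, 609 and 454 (449 ± 130.5). At E9.5 it read 197, 187 and 138.5 CPM in EC (174 ± 31.3), 365, 450.4 and 255 in HE (357 ± 97.7) and 289, 310.1 and 218 in pro-HSC/HPC (272 ± 48.5). HE was above EC in every library of both days, and HE overlapped pro-HSC/HPC.

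At E10.5 Efna1 read 241, 312 and 225 CPM in EC (259 ± 46.4) and 622, 704 and 694 in HE (673 ± 44.9). Pre-HSC I read 152, 105 and 118 CPM (125 ± 24.5). Pre-HSC II followed with 21.7, 11.8 and 2.83 (12.1 ± 9.44). Unlike Efnb2, Efna1 in pre-HSC I lay below EC of the same day in all 3 libraries. These 2 groups were not tested against each other, and the share of all genes separated in this way was not taken. The neighbours in its order of means that did not overlap were E10.5 HE above E8.5 HE, E10.5 EC above E9.5 EC, and pre-HSC I above pre-HSC II. Of all genes, 9.25% lay higher in E10.5 EC than in E9.5 EC without overlap, and 9.94% lower in pre-HSC II than in pre-HSC I. The share was not taken for E10.5 HE against E8.5 HE.

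Efnb1, another class B ligand and a binder of EphB2 and EphB3, was scarce in every library, at 0 to 127 counts. E8.5 EC read 4.27, 2.55 and 4.76 CPM (3.86 ± 1.16) against 1.90, 0.768, 0 and 0.716 in HE (0.847 ± 0.786). At 0 counts, HE replicate 3 allows a level of up to 0.143 CPM. At E10.5 the EC libraries read 2.88, 3.34 and 2.36 CPM (2.86 ± 0.489) and the HE libraries 0.0720, 0.786 and 1.19 (0.681 ± 0.564). EC lay above HE in every library on these 2 days and overlapped HE at E9.5, where EC read 0.582, 1.90 and 5.55 CPM. In the remaining populations the means were 0.674 to 0.906 CPM.

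**Figure D1:**
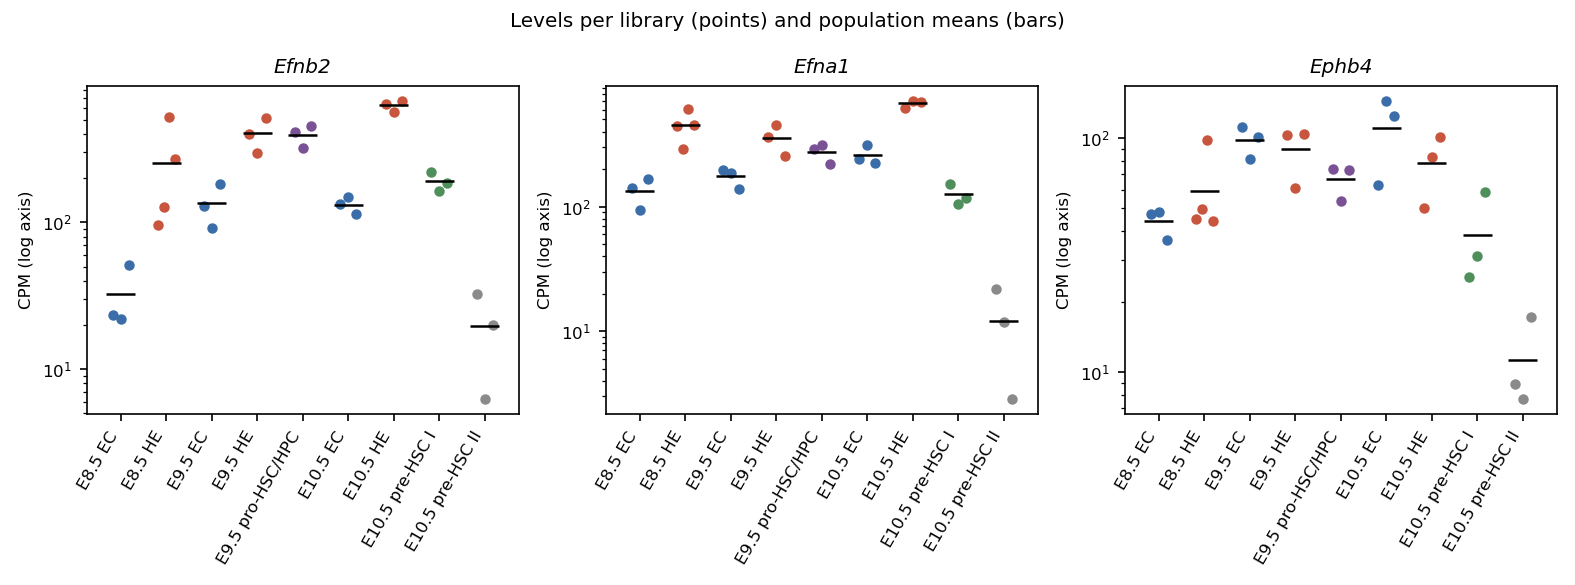
Level of Efnb2, Efna1 and Ephb4 in each library (points, CPM on a log axis) with the population mean (bar), for the 9 populations in order of day. Both ligands peak in HE of E10.5, with means of 627 and 673 CPM, while Ephb4 has its highest means in EC of E10.5 and E9.5, and pre-HSC II is lowest in all 3 panels.

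Ephb4, the venous receptor of ephrin-B2, was the most abundant receptor per kb and had population means between 11.3 and 110.0 CPM. E8.5 EC read 47.1, 48.1 and 36.7 CPM (44.0 ± 6.34) and E8.5 HE 45.0, 49.8, 97.4 and 44.2 (59.1 ± 25.7). At E9.5 it read 111, 81.0 and 101 CPM in EC (97.8 ± 15.5), 103, 61.2 and 104 in HE (89.3 ± 24.4) and 73.7, 53.8 and 72.8 in pro-HSC/HPC (66.8 ± 11.3). EC and HE of the same day overlapped.

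At E10.5 Ephb4 read 62.8, 144 and 124 CPM in EC (110.0 ± 42.1) and 50.4, 82.7 and 101 in HE (78.0 ± 25.7). Pre-HSC I read 25.4, 31.4 and 58.7 CPM (38.5 ± 17.8) and pre-HSC II 8.92, 7.65 and 17.2 (11.3 ± 5.19). Among neighbours in its order of means, only pre-HSC I and pre-HSC II had separate libraries.

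Ephb2 and Ephb3, receptors of class B ligands with known roles in axon guidance and gut epithelium, were near the detection limit. Ephb2 means ran from 0.511 CPM in E10.5 HE to 2.15 ± 1.57 in E8.5 EC, where the libraries read 1.85, 3.85 and 0.752. No neighbours in its order of means had separate libraries. Ephb3 means ran from 0.125 CPM in pre-HSC II, with 2, 5 and 2 counts, to 2.29 ± 0.919 in E10.5 HE, with 80, 56 and 28 counts. The Ephb3 libraries of E10.5 HE, at 2.88, 2.75 and 1.23 CPM, lay above all libraries of E9.5 HE (0.142, 0.524 and 0.469) and of both pre-HSC groups. Ephb3 also varied within groups, as in pro-HSC/HPC, where replicate 1 had 61 counts against 1 and 8 in the other two.

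**Figure D2:**
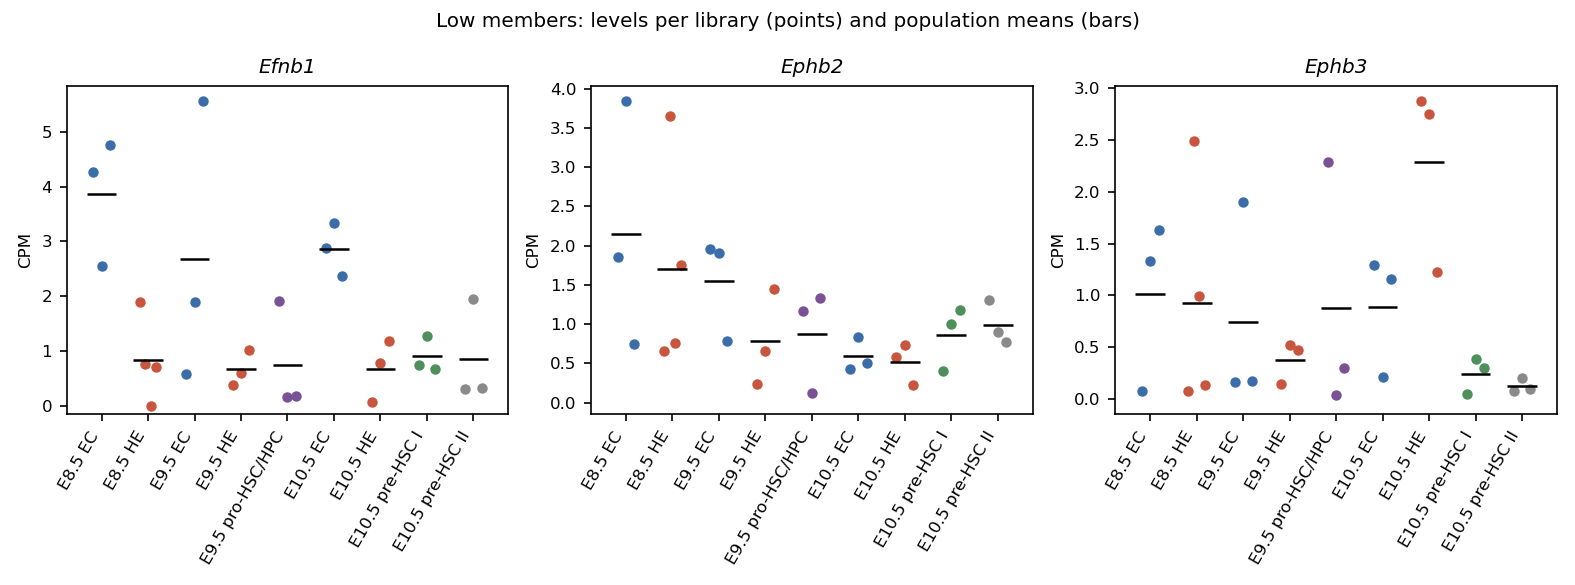
Level of Efnb1, Ephb2 and Ephb3 in each library (points, CPM on a linear axis) with the population mean (bar). The 3 genes stay below 6 CPM in every library, Efnb1 has its highest means in the EC groups, and Ephb3 has its highest mean in E10.5 HE.

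To compare genes with each other, levels were divided by the transcript length in the table, which gives CPM per kb. On that scale Efna1 had the highest mean of the 8 ephrins in each population, with a mean share of the ephrin total between 37.9% in pre-HSC II and 82.6% in E8.5 EC. The pre-HSC II libraries spread from 16.55% to 51.11%, and in replicate 3 Efna1 lay below Efnb2, at 1.72 against 4.62 CPM per kb. In E10.5 HE Efna1 reached 410.1 ± 27.4 CPM per kb, against 145 ± 12.4 for Efnb2 and 19.1 ± 3.13 for Efna5. The share of Efnb2 was 7.40% ± 2.19 for EC and 15.6% ± 7.03 for HE of E8.5. For E10.5 it was 14.2% ± 0.765 in EC, 24.9% ± 2.34 in HE and 33.9% ± 0.419 in the pre-HSC I group. Its libraries did not overlap between EC and HE at E10.5 (13.7 to 15.1% against 22.3 to 26.8%), and they did at E8.5 (5.57 to 9.83% against 7.20 to 23.9%).

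Ephb4 made up 52.1% to 73.1% of the summed level of the 14 Eph receptors, by population mean. The next receptors were Epha2, the main partner of ephrin-A1, with 23.3% ± 5.34 of the receptor sum in E9.5 EC, and Epha4, a receptor that binds ligands of both classes, with 15.9% ± 2.21 in E10.5 HE. In E10.5 EC the share of Epha4 was 0.982% ± 0.768. Summed ephrins exceeded summed Eph receptors in each library. Their ratio averaged 6.88 ± 2.71 in E8.5 EC, 5.03 ± 0.598 in E9.5 EC and 6.80 ± 2.35 in E10.5 EC, against 17.3 ± 3.96, 11.7 ± 4.43 and 23.0 ± 6.05 in HE of the same days. The libraries of HE lay above those of EC on each day, and pre-HSC II had the lowest mean ratio, 3.58 ± 1.47.

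**Figure D3:**
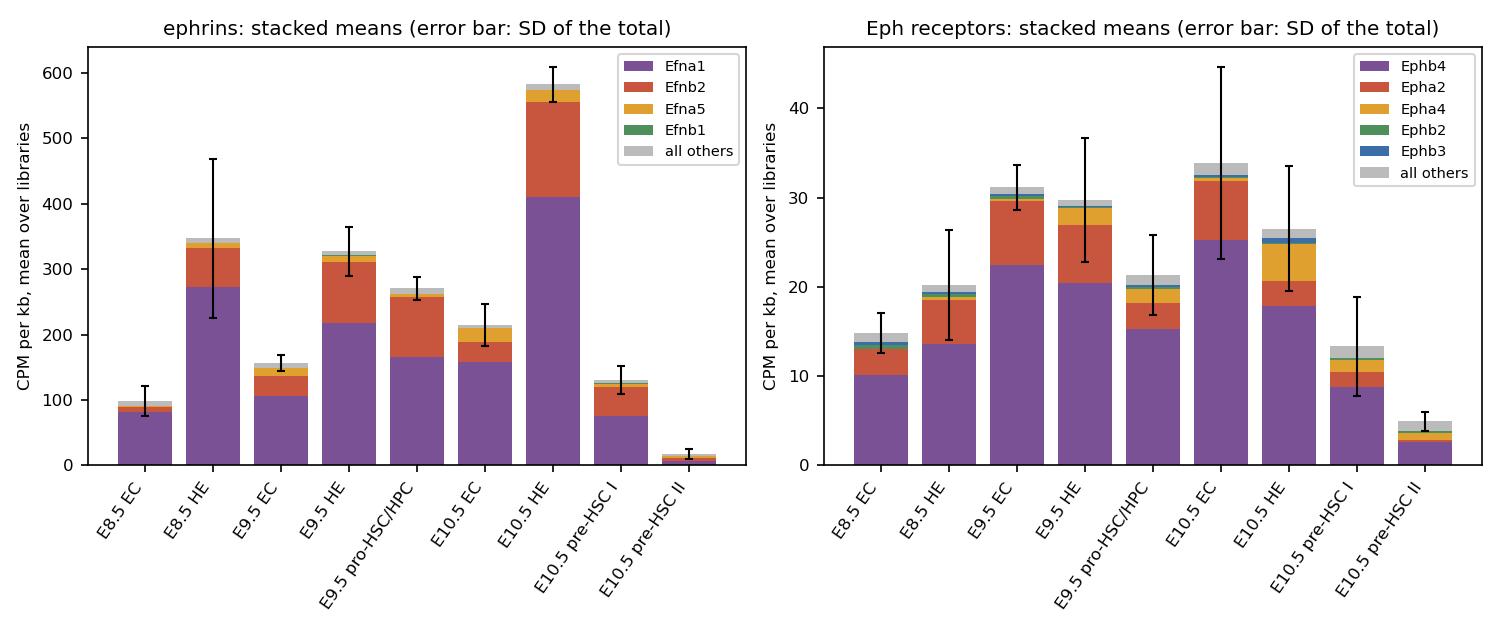
Mean level of the ephrins (left) and the Eph receptors (right) per population, stacked by gene, in CPM per kb on linear axes that start at 0 and differ in scale; error bars are the SD of the total over libraries. Efna1 and Efnb2 fill most of the left bars and Ephb4 most of the right ones, and the ephrin total is highest in E10.5 HE at 583 CPM per kb.

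Each day's HE was then set against its EC, the comparison of blood-forming with other endothelium. At E8.5, 2 of the 6 genes passed the test, both higher in HE. Of the 15238 genes tested, 6.81% were called in either direction (adjusted p under 0.05) and 5.08% were called higher. Efnb2 was 7.89-fold higher in HE (log2 difference 2.98 ± 0.50 SE, edgeR adjusted p = 0.000364) and Efna1 3.35-fold higher (1.75 ± 0.38, adjusted p = 0.00508). Efnb1 differed by -2.18 ± 1.09 and Ephb4 by 0.43 ± 0.35 on the log2 scale, and neither passed (edgeR adjusted p = 0.242 and 0.516). Both abundant ligands were higher without overlap, as were 7.77% of all genes, and Efnb1 was lower without overlap, as were 8.07%. The median over the 6 genes was 0.15, against 0 over all genes tested. Without HE replicate 3, the highest library for all 3 abundant genes, 582 of 15247 genes were called in all, and the Efnb2 difference was 2.36 and still passed (edgeR adjusted p = 0.00141, range over the alternatives 4.75e-10 to 0.0468). Same-numbered libraries of E8.5 and of E9.5 deviated together, and with the replicate number of each day as a block, a fit added after the data were seen, the same count of 2 genes passed while the share of all genes called was 14.4%. In that fit HE replicate 4, which has no EC partner, adds nothing to the comparison, and the Efnb2 difference was 2.64.

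At E9.5 the ligands were again higher in HE in every library, Efnb2 3.00-fold (log2 1.59 ± 0.49) and Efna1 2.05-fold (1.03 ± 0.39), but edgeR called none of the 6 genes. That day 0.302% of all genes were called at an adjusted p under 0.05, and the edgeR adjusted p was 0.269 for Efnb2 and 0.54 for Efna1. Of the 6, 2 had an unadjusted p under 0.05. The share of all genes at that unadjusted level was not taken, here and in all later comparisons, so the shares called are no measure for such counts. DESeq2 called 1 of the 6, Efnb2 (adjusted p = 0.0452), and 169 of 13740 genes in all. With the replicate number of each day as a block, edgeR also called Efnb2 (log2 1.6, adjusted p = 0.0135, range over the alternatives 0.0135 to 0.917). That fit called 168 of the 15238 genes, against 46 without the block. Of all genes, 7.78% were higher in HE without overlap, as the 2 ligands were. Ephb4 differed by -0.13 (95% interval -0.89 to 0.63 on the log2 scale).

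At E10.5 edgeR called Efnb2 alone, 4.75-fold higher in HE (log2 2.25 ± 0.50, adjusted p = 0.00933), where 3.48% of all genes were called and 2.11% were called higher. Efna1 was 2.60-fold higher without overlap and lay just outside the threshold (1.38 ± 0.40, edgeR adjusted p = 0.051). DESeq2 called it (adjusted p = 0.00804, range over the alternatives 0.00766 to 0.186), where 945 of 14031 genes were called. So did edgeR with the replicate number of each day as a block (adjusted p = 0.0112), where 1316 of the 15238 genes were called. Ephb4 was 0.709 times its EC level, a log2 difference of -0.50 with a 95% interval of -1.25 to 0.26. Efnb1 differed by -2.07 ± 1.21 (edgeR adjusted p = 0.427). Separation without overlap, seen upward in Efnb2 and Efna1 and downward in Efnb1, held for 11.4% and 8.96% of all genes. Without EC replicate 3 the Efnb2 call was lost (log2 2.15, edgeR adjusted p = 0.0572, range over the alternatives 6.78e-05 to 0.0572). Epithelial and mesonephric markers summed to 50.5 to 79.1 CPM in E10.5 HE and to 3.53 to 19.7 in EC. In HE 7 of the 10 listed genes were detected, with Pax2, Pax8 and Lhx1 at 0, and in EC all 10 were detected. Mesenchyme and smooth muscle markers summed to 227 to 951 CPM in E10.5 HE and to 26.2 to 368.5 in EC, which overlapped. The part of either list in these differences was not tested.

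Endothelial markers moved with these differences: their summed level was 2054 to 2914 CPM in HE against 1519 to 1645 in EC at E8.5, 3063 to 3815 against 2524 to 2945 at E9.5, and 3714 to 4155 against 3180 to 3720 at E10.5, where 1 library pair overlapped. Their part in the higher ligand levels was not tested.

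The HE minus EC differences were themselves compared between days. None of the 6 genes passed in any of the 3 comparisons of days by edgeR or DESeq2. For E9.5 against E8.5, where 0.847% of all genes were called, 1 gene had an unadjusted p under 0.05, Efnb2, whose difference was smaller by 1.39 ± 0.66 on the log2 scale (edgeR adjusted p = 0.531). For E10.5 against E8.5 (2.99% of all genes called) and E10.5 against E9.5 (0.0131% called), 0 of the 6 had an unadjusted p under 0.05. The Efnb2 intervals of -2.09 to 0.62 and -0.73 to 2.06 for these 2 comparisons both span 0.

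**Figure D4:**
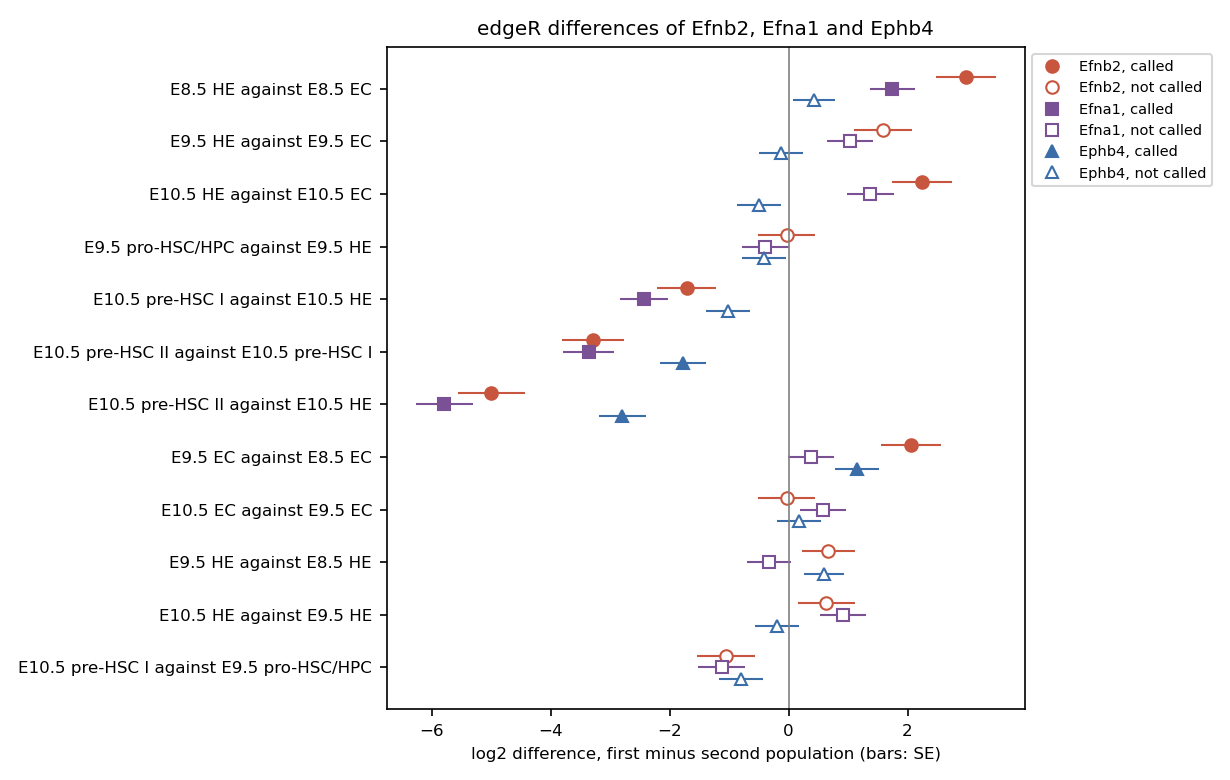
Log2 differences of Efnb2, Efna1 and Ephb4 in the 12 comparisons of populations (first minus second named), from edgeR, with SE bars; filled symbols passed an adjusted p of 0.05. Both ligands lie to the right in the 3 comparisons of HE with EC and to the left in the comparisons of pre-HSC groups with HE, where Efna1 reaches -5.79.

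Because Efnb2 and Ephb4 mark artery and vein, their ratio per kb was taken within each library, which does not depend on scaling between libraries. In E8.5 EC the ratio was 0.505, 0.463 and 1.42, and in E8.5 HE 2.14, 2.60, 5.46 and 6.18. At E9.5 it was 1.17, 1.14 and 1.84 in EC, 3.9, 4.94 and 5.02 in HE and 5.67, 6.0 and 6.31 in pro-HSC/HPC. At E10.5 it was 2.14, 1.04 and 0.933 in EC and 12.8, 6.94 and 6.72 in HE. On each day all HE libraries lay above all EC libraries. In EC the ratio fell on both sides of 1, from 0.463 to 2.14.

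The mean log2 ratio was higher in HE than in EC by 2.42 at E8.5 (5.35-fold), 1.77 at E9.5 (3.40-fold) and 2.72 at E10.5 (6.60-fold). Two-sided exact permutation tests gave p = 0.0286 at E8.5 and p = 0.1 on each later day, the smallest values that 4 against 3 and 3 against 3 libraries allow, and adjusted over the 7 ratio comparisons each was 0.14. Permuting within days over all 3 days gave a mean difference of 2.30 (4.93-fold) with an exact p = 7.14e-05, the smallest that the 14000 assignments can give. This test draws on the same libraries as the 3 single-day values. The ratio tests, here and below, shuffled libraries freely within a day and ignored replicate numbers. Same-numbered libraries of E8.5 and E9.5 deviated together, and at E10.5 2 of the 3 pairs in each comparison correlated over 0.1. These p-values leave any such pairing out. A paired version was not run.

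In pre-HSC I the ratio was 8.85, 5.31 and 3.21, which overlapped HE (difference -0.66 on the log2 scale, exact permutation p = 0.4, adjusted p = 0.4). In pre-HSC II it was 3.69, 0.822 and 1.17, below every HE library (-2.47, exact permutation p = 0.1, adjusted p = 0.14) and overlapping pre-HSC I (-1.80, exact permutation p = 0.2, adjusted p = 0.233). The ratio in pro-HSC/HPC lay above that in E9.5 HE in every library, by 0.38 on the log2 scale (1.30-fold, exact permutation p = 0.1, adjusted p = 0.14).

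**Figure D5:**
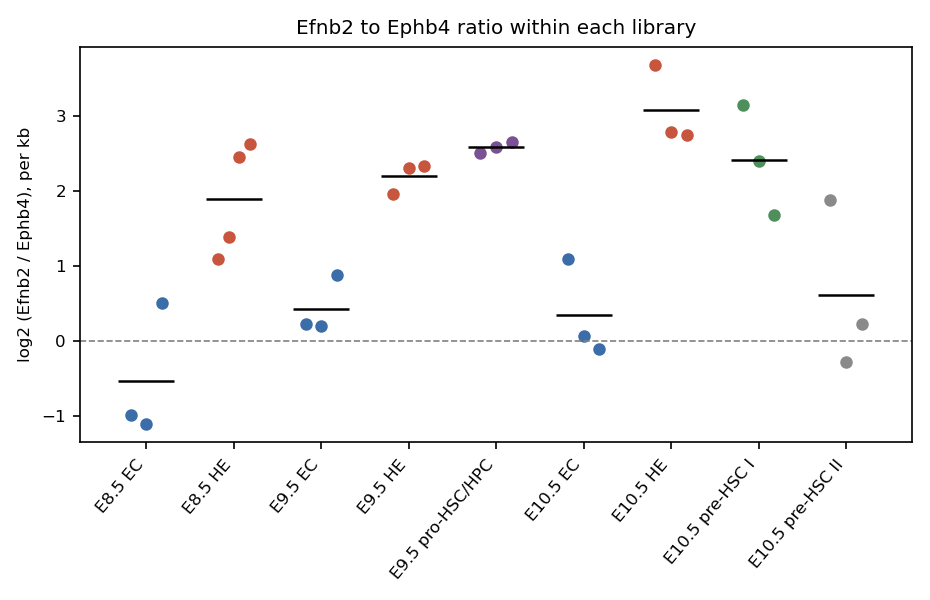
Log2 ratio of Efnb2 to Ephb4, each per kb, within each library (points) with the population mean (bar); the dashed line at 0 marks equal levels. HE lies above EC on all 3 days, with means of 1.89, 2.20 and 3.08 against -0.53, 0.43 and 0.35.

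The next comparisons follow the cells that leave HE. Between E9.5 HE and pro-HSC/HPC, edgeR and DESeq2 called none of the 6 genes, and 0 had an unadjusted p under 0.05, where 0.656% of all genes were called. With the replicate number of each day as a block the call count was again 0 of the 6, with 218 genes called in all against 100. Log2 differences were -0.03 (95% interval -1.01 to 0.95) for Efnb2, -0.39 (-1.19 to 0.41) for Efna1 and -0.42 (-1.18 to 0.34) for Ephb4. All 3 overlapped between the groups, while the blood markers summed to 388 to 504.5 CPM in pro-HSC/HPC and 54.4 to 63.6 in E9.5 HE.

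At E10.5 both ligands fell between HE and pre-HSC I, where 6.88% of all genes were called and 3.8% were called lower, Efna1 by 2.43 ± 0.41 on the log2 scale (edgeR adjusted p = 0.000435) and Efnb2 by 1.71 ± 0.49 (adjusted p = 0.0316). Ephb4 differed by -1.02 ± 0.37 and Ephb3 by -3.21 ± 1.48, and neither passed (edgeR adjusted p = 0.102 and 0.204). The 2 ligands and Ephb3 were lower without overlap, as were 12.4% of all genes. The Efnb2 call was lost when any 1 of the 6 libraries was left out, with log2 values of -1.83 to -1.62 and edgeR adjusted p of 0.0549 to 0.132 (range over all its alternatives 0.000866 to 0.132). Without pre-HSC I replicate 3, the highest of its group for Ephb4, Ephb4 passed instead (-1.46, edgeR adjusted p = 0.0382, range over the alternatives 0.00927 to 0.336). With the replicate number of each day as a block Ephb4 passed as well (-1.05, edgeR adjusted p = 0.00927), where 2327 of the 15238 genes were called. Endothelial markers summed to 1137 to 1578 CPM in pre-HSC I against 3714 to 4155 in HE, and their part in the falls was not tested.

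From pre-HSC I to pre-HSC II, where 4.42% of all genes were called and 4.28% were called lower, Efnb2, Efna1 and Ephb4 fell. None of the 3 overlapped, and 9.94% of all genes were lower without overlap. Efna1 fell by 3.36 ± 0.43 on the log2 scale (edgeR adjusted p = 4.87e-06), Efnb2 by 3.29 ± 0.53 (adjusted p = 0.000101) and Ephb4 by 1.78 ± 0.38 (adjusted p = 0.00362). Pre-HSC II replicate 1 was the highest of its group for both ligands; without it the differences were -4.10 for Efna1 and -3.88 for Efnb2. Without pre-HSC I replicate 3 the Ephb4 call was lost (-1.34, edgeR adjusted p = 0.0558, range over the alternatives 0.000113 to 0.0558). Endothelial markers summed to 361 to 470 CPM in pre-HSC II against 1137 to 1578 in pre-HSC I, and their part was not tested.

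Over the whole course from E10.5 HE to pre-HSC II, where 21.4% of all genes were called and 12.7% were called lower, Efna1 fell by 5.79 ± 0.48 on the log2 scale (edgeR adjusted p = 7.89e-10), Efnb2 by 5.0 ± 0.57 (adjusted p = 1.73e-07) and Ephb4 by 2.80 ± 0.40 (adjusted p = 5.81e-06). Without pre-HSC II replicate 1 the Efna1 difference was -6.52. Ephb3 was lower without overlap, at 9 against 164 summed counts, but missed the threshold (-4.13 ± 1.56, edgeR adjusted p = 0.0555). DESeq2 called it (adjusted p = 0.0136, range over the alternatives 0.0136 to 0.159), where 3754 of 14608 genes were called. So did edgeR with the replicate number of each day as a block (adjusted p = 0.0398), where 4597 of the 15238 genes were called. Ephb2 lay above HE in every pre-HSC II library, at 0.766 to 1.30 against 0.219 to 0.737 CPM, and did not pass (0.95 ± 0.97, edgeR adjusted p = 0.551). With no overlap, 19.2% of all genes were lower and 18.6% higher. Efnb1 differed by 0.35 with a 95% interval of -2.07 to 2.77. The median over the 6 genes was -3.46, against 0.02 over all genes tested. Mesenchyme and smooth muscle markers were also lower, at 49.1 to 62.2 CPM in pre-HSC II against 227 to 951 in HE, with all 10 detected in both, and their part was not tested.

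Pre-HSC I was also set against pro-HSC/HPC, the population next to HE one day earlier, which differs in tissue label too. Both ligands were lower in every pre-HSC I library, Efnb2 and Efna1 at -1.05 ± 0.48 and -1.12 ± 0.39 on the log2 scale, a separation that 9.88% of all genes showed, and Ephb4 differed by -0.80 ± 0.37. By edgeR and DESeq2 0 of the 6 genes were called, and edgeR called 1.45% of all genes at an adjusted p under 0.05. Of the 6, 3 had an unadjusted p under 0.05, and the share of all genes at that level was not taken. The change away from HE was then compared between the days, E10.5 HE to pre-HSC I against E9.5 HE to pro-HSC/HPC. It was more negative at E10.5 by 2.04 ± 0.56 for Efna1 (edgeR adjusted p = 0.135) and by 1.68 ± 0.68 for Efnb2 (adjusted p = 0.372). In this comparison edgeR called 0 of the 6 genes and 0.0722% of all genes at an adjusted p under 0.05, with 3 of the 6 at an unadjusted p under 0.05. DESeq2 called 1 of the 6, Efna1 (adjusted p = 0.0204, range over the alternatives 0.0189 to 0.504), and 193 of 12865 genes in all. With the replicate number of each day as a block, edgeR called Efna1 and Efnb2 (adjusted p = 0.0189 and 0.0347), and 527 of the 15238 genes in all.

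Within EC, Efnb2 and Ephb4 rose together between E8.5 and E9.5, where 19.7% of all genes were called and 10.1% were called higher. Efnb2 rose 4.17-fold (log2 2.06 ± 0.50, edgeR adjusted p = 0.0049) and Ephb4 2.22-fold (1.15 ± 0.37, adjusted p = 0.0303), and neither overlapped; 19.5% of all genes were higher without overlap. Efna1 differed by 0.38 (95% interval -0.42 to 1.18). The Ephb4 call was lost without any 1 of E8.5 EC replicates 1, 2 or 3 or E9.5 EC replicates 1 or 3 (edgeR adjusted p of 0.0568 to 0.0966, range over the alternatives 0.00933 to 0.0966), with log2 values of 1.05 to 1.25. Endothelial markers summed to 1519 to 1645 CPM in E8.5 EC and 2524 to 2945 in E9.5 EC, and mesenchyme and smooth muscle markers to 49.4 to 73.2 and 90.8 to 589; the part of either list was not tested. From E9.5 to E10.5 edgeR and DESeq2 called 0 of the 6 genes in EC, 0 had an unadjusted p under 0.05, and 0.761% of all genes were called. Efna1 was higher in every E10.5 EC library (0.57 ± 0.39), as 9.25% of all genes were.

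Within HE, edgeR called none of the 6 genes between consecutive days, and DESeq2 called none. From E8.5 to E9.5 (6.54% of all genes called) 0 had an unadjusted p under 0.05, and Efnb2 differed by 0.67 ± 0.44. Without E8.5 HE replicate 3 that difference was 1.32 and passed (edgeR adjusted p = 0.0456, range over the alternatives 0.0456 to 0.692). Mesenchyme and smooth muscle markers summed to 37.8 to 82.9 CPM in E8.5 HE and 309 to 466 in E9.5 HE, and their part was not tested. From E9.5 to E10.5 (3.64% called) 1 had an unadjusted p under 0.05, Efna1, at 0.92 ± 0.39 (edgeR adjusted p = 0.209). Efna1, Efnb2 (0.63 ± 0.48) and Ephb3 (2.58 ± 1.43) lay higher in every E10.5 HE library than in any of E9.5, a separation that 12.9% of all genes showed.

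The remaining family, 16 ephrins and Eph receptors, held 12 genes with enough counts to test. Efna5, a lipid-anchored ligand, was the most abundant of them. It averaged 5.42 ± 4.62 CPM in E8.5 EC and 41.0 ± 13.3 in E8.5 HE (log2 2.90 ± 0.51, edgeR adjusted p = 0.000589), but 111 CPM in E10.5 EC against 100.5 in E10.5 HE (-0.15 ± 0.48). Its HE minus EC difference was lower at E9.5 than at E8.5 by 3.09 ± 0.69 (edgeR adjusted p = 0.0238) and at E10.5 than at E8.5 by 3.04 ± 0.69 (adjusted p = 0.0105). In EC Efna5 rose by 3.43 ± 0.54 from E8.5 to E9.5 (edgeR adjusted p = 9.3e-05).

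Epha4, the receptor for both ligand classes, was higher in HE than EC at E10.5, at 26.1 against 2.22 CPM (log2 3.55 ± 0.76, edgeR adjusted p = 0.00671), and rose in HE between E8.5 and E9.5 (2.64 ± 0.66, adjusted p = 0.0166). Epha2 had its highest mean in E9.5 EC, 28.3 CPM, and fell from pre-HSC I to pre-HSC II (-2.53 ± 0.66, edgeR adjusted p = 0.0214). Efnb3, a class B ligand, had its highest mean in E8.5 EC, 13.5 CPM. Efna3, the neighbour of Efna1, summed to 96 counts in E8.5 HE and 1 in E8.5 EC. Scaled for depth, HE stood at 66.8 times EC, with an interval from counting of 11.7 to 2667 at the 95% level. It covers counting error only, and the libraries of the 2 groups overlapped.

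Between E10.5 HE and pre-HSC II, 4 of the 12 passed, all lower, where 12.7% of all genes were called lower: Efna5 (-3.01), Efnb3 (-3.11), Epha2 (-3.30) and Epha4 (-2.46). Their median over the 12 was -2.32, against -3.46 for the 6 genes above. Between HE and EC, 2 of the 12 were higher and 0 lower at E8.5 (5.08% of all genes called higher), and 1 was higher and 0 lower at E10.5 (2.11% of all genes called higher). At E9.5 edgeR called 0 of the 12, with 2 at an unadjusted p under 0.05. DESeq2 called 1 of them higher, Epha4, where it called 157 of 13740 genes higher. Between E10.5 HE and pre-HSC I 1 of the 12 passed, Efna5, which fell by 2.03, where 3.8% of all genes were called lower.

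Among 25 genes known to carry ephrin or Eph signals inside the cell, 24 were tested. Rgs3, a regulator of G proteins that binds the tail of class B ephrins, was higher in HE than in EC at E8.5 (log2 1.61 ± 0.25, edgeR adjusted p = 0.000171) and E10.5 (1.29 ± 0.26, adjusted p = 0.00411). Its mean went from 123 CPM in E10.5 HE through 53.1 in the first pre-HSC group to 5.08 in the second, and it fell in both steps (-1.22 ± 0.26 and -3.38 ± 0.29, edgeR adjusted p = 0.00415 and 3.26e-08). At E8.5 the adaptor Nck2 (1.32) and the kinase Fyn (1.07) were also higher in HE, so that 3 of the 24 were higher and 0 lower, where 5.08% of all genes were called higher. At E10.5 Rgs3 was the only partner that edgeR called between HE and EC. DESeq2 called it and 3 more, Itsn1, Tiam1 and Vav3, these 3 lower in HE, where it called 406 of 14031 genes lower. At E9.5 edgeR and DESeq2 called 0, with 1 at an unadjusted p under 0.05.

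Between E10.5 HE and pre-HSC I, 4 of the 24 partners passed, all lower, where 3.8% of all genes were called lower. Besides Rgs3 the smallest p belonged to the clathrin adaptor Dab2 (-2.79) and the exchange factor Arhgef15 (-1.85). From pre-HSC I to pre-HSC II 3 passed, all lower (4.28% of all genes called lower), Rgs3, Arhgef15 (-2.75) and the polarity protein Pard3 (-2.64). Over the whole course 8 of the 24 fell, where 12.7% of all genes were called lower, and 1 rose, where 1333 of the 15238 genes were called higher. The 1 that rose was Vav3, a Rac exchange factor used by Eph receptors, at 77.2 against 39.1 CPM (0.98 ± 0.24, edgeR adjusted p = 0.00423). The median of the partners was -0.34, against 0.02 over all genes. In EC 6 of the 24 partners rose and 0 fell from E8.5 to E9.5, where 10.1% of all genes were called higher, among them Fyn (1.77), Vav3 (1.01) and Nck2 (1.58). In HE the Rac exchange factor Tiam1 fell from 71.1 CPM at E9.5 to 12.8 at E10.5 (-2.47 ± 0.41, edgeR adjusted p = 0.00104).

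The genes whose course over the 9 population means was most like each abundant gene were found by Pearson correlation of log2(CPM + 1) among 9234 genes, as a description over points that share libraries. For Efnb2 they were Col18a1 (0.988), a basement membrane collagen, Npr3 (0.987), the clearance receptor of natriuretic peptides, and Sox13 (0.984), a transcription factor. For Efna1 they were Ece1 (0.996), which activates endothelin, the endothelial adhesion molecule Icam2 (0.988) and the membrane protein Itm2c (0.985). For Ephb4 they were Arhgap31 (0.994), which inactivates Rac and Cdc42, the septin Sept10 (0.991) and the adaptor She (0.989). The choice of measure mattered: of the 3 nearest genes, 1 for Efnb2, 1 for Efna1 and 0 for Ephb4 were also among the 3 nearest by Spearman correlation.

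For the scarce genes the nearest were Abcb6, Hmgxb4 and Pvt1 for Efnb1 (0.884 to 0.910), Mak16, Atp5g1 and Rbm8a for Ephb2 (0.954 to 0.959) and Alas1, Rab18 and Zfp54 for Ephb3 (0.937 to 0.95), all at counts too low to weigh. Among the 6 genes themselves, the correlation over the 9 means was 0.85 for Efnb2 with Efna1, 0.87 for Efna1 with Ephb4 and 0.70 for Efnb2 with Ephb4.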

How the data were processed

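The authors deposited a table of unnormalized read counts by gene. Per the submitters' processing notes they used TopHat, SAMtools, Subread and featureCounts 1.6.2 on mm9. The sources used here give neither the strand setting nor the handling of reads with several matches, so reads shared by related genes could be split in unknown ways. Libraries were made with a low-input SMARTer kit, per the labels' protocols.

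Testing used edgeR 4.0.16 under R 4.3.3: filterByExpr with a minimum count of 10 (15238 of 24015 genes, all 6 members among them; 2723 genes were at 0 everywhere), TMM scaling, and edgeR's quasi-likelihood test, fitted to the 28 libraries together with a term for each of the 9 populations. The spread is therefore shared by all comparisons (biological coefficient of variation 0.563) and those with a common population share its libraries. P-values were adjusted by Benjamini-Hochberg over all genes tested, at a threshold of 0.05. The ratio of Efnb2 to Ephb4 used a pseudocount of 0.5 counts and exact permutation tests. Alternatives were DESeq2 1.42.0, no filter, a filter of 10 CPM in 3 libraries, DESeq2 size factors, a replicate block, a fit on only the populations compared, pro-HSC/HPC libraries rich in hemoglobin left out, and each library left out in turn.

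The 6 members and the lists were chosen with earlier results of these data known. Named genes were the members, other family genes whose mean reached 10 CPM in 1 population or called in a comparison described, up to 3 called partners with the smallest p in a comparison, and the 3 genes most like each member. Whether replicate numbers pair libraries was checked from the correlation of deviations from the group means. All 3 same-numbered pairs were over 0.1 in 3 of the 7 comparisons within a day (E8.5 HE with EC, E9.5 HE with EC, E9.5 pro-HSC/HPC with HE), which were taken as paired, and in 0 of the 5 between days. Counted singly, 17 of 21 pairs within a day were over 0.1, against 2 of 15 between days. A block on the replicate number within each day was added after the data were seen. In simulated data for E10.5 HE against EC, on 14855 genes, edgeR recovered 26.9% of genes changed 2-fold, 86.6% changed 4-fold and 100% changed 8-fold, with 3 false calls of 145. Only genes averaging at least 10 CPM over the libraries were changed, so these rates do not cover Efnb1, Ephb2 and Ephb3. Counts were drawn with a spread set by level alone, without differences in spread between genes of like level or shifts between replicates.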

Additional observations from a re-analysis of the deposited data

Results flagged for a closer look

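In E8.5 HE, replicate 3 read 97.4 CPM for Ephb4, far above the other 3 libraries at 44.2 to 49.8. Chance sets about 1 such group in 20 apart by this measure. The search covered each member, other family genes and the Efnb2 to Ephb4 ratio in this group, so a flag can arise by chance. The same library was the highest of its group for Efnb2 and Efna1 and had 0 counts of Efnb1. It also had the highest sums of the group for endothelial (2914 CPM), macrophage (60.8) and mesenchyme and smooth muscle markers (82.9), whose part was not tested.

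The HE minus EC difference of Efna5 was lower at E9.5 than at E8.5 by 3.09 on the log2 scale (-3.09 ± 0.69, edgeR adjusted p = 0.0238) and lower at E10.5 than at E8.5 (-3.04 ± 0.69, edgeR adjusted p = 0.0105). Its EC mean went from 5.42 CPM at E8.5 to 59.4 at E9.5 and 111 at E10.5, and its HE mean from 41.0 to 52.1 and 100.5.

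For Vav3 the difference was 0.50 at E8.5 and -0.77 at E10.5, a change of -1.27 ± 0.33 (edgeR adjusted p = 0.0333). For Fyn it was 1.07 at E8.5 and -0.46 at E10.5, a change of -1.52 ± 0.40 (edgeR adjusted p = 0.0321).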

How the results depend on the processing

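No alternative reversed a difference that edgeR had called. DESeq2 called 1 of the 6 genes for E9.5 HE against EC, 2 for E10.5 HE against EC, 1 for the step from HE to blood and 4 for pre-HSC II against HE, in place of 0, 1, 0 and 3. No filter, DESeq2 size factors and the filter of 10 CPM in 3 libraries each gave 2 for E10.5 HE against EC; the last left Efnb1, Ephb2 and Ephb3 without a value. A fit on only the populations compared gave 1 for E9.5 HE against EC, 2 for E10.5 HE against EC, 1 for E10.5 against E9.5 HE, 2 for the step and 4 for pre-HSC II against HE. Leaving out 1 library gave 1 to 2 calls for E9.5 against E8.5 EC, 0 to 1 for E9.5 against E8.5 HE, 0 to 1 for E10.5 HE against EC, 1 to 2 for pre-HSC I against HE and 2 to 3 for pre-HSC II against the first pre-HSC stage, with the libraries named above. The replicate block gave 3 calls for pre-HSC I against HE (against 2, with Ephb4 added at log2 -1.05, edgeR adjusted p = 0.0472, range over its alternatives 0.00927 to 0.336) and 4 for pre-HSC II against HE (against 3, with Ephb3 added), and the same counts elsewhere. The replicate block within each day gave 1 for E9.5 HE against EC (Efnb2), 2 for E10.5 HE against EC (Efna1 added), 3 for pre-HSC I against HE (Ephb4 added), 4 for pre-HSC II against HE (Ephb3 added) and 2 for the step (Efna1 and Efnb2), and the same counts in the other comparisons it could fit. At E10.5, 2 of the 3 pairs in each comparison correlated over 0.1 and 1 below (0.0273 to 0.0853). Those comparisons therefore missed the rule for pairing, although every correlation was positive. Of the 28 libraries, 22 correlated best, outside their population, with one of their own number. Leaving out the hemoglobin-rich pro-HSC/HPC libraries changed no count among the 6 genes, but over all genes calls went from 100 to 24 for pro-HSC/HPC against HE, from 221 to 24 for pre-HSC I against pro-HSC/HPC and from 11 to 2 for the step. The share of all genes called ranged over the alternatives from 1.51 to 14.4% for HE against EC at E8.5, 0.0698 to 1.23% at E9.5 and 1.8 to 8.64% at E10.5. It was 0.144 to 1.54% for pro-HSC/HPC against HE, 3.24 to 15.3% for pre-HSC I against HE, 2.96 to 6.88% between the pre-HSC stages, 14.9 to 30.7% for pre-HSC II against HE and 0.144 to 3.49% for pre-HSC I against pro-HSC/HPC. Between days it was 10.8 to 31.7% and 0.165 to 3.04% in EC, and 1.67 to 12.6% and 1.33 to 7.52% in HE. For the differences between days it was 0.526 to 1.96%, 1.7 to 6.02% and 0 to 0.263%, and for the step 0.012 to 3.46%. The lowest share came without 1 library for E9.5 HE against EC (EC replicate 2), E10.5 HE against EC (EC replicate 3) and pre-HSC I against HE (pre-HSC I replicate 2). So it did between the pre-HSC stages (pre-HSC II replicate 2) and for the HE minus EC difference of E9.5 against E8.5 (E9.5 HE replicate 2). Between days the same held for E9.5 against E8.5 EC (E9.5 EC replicate 3), E10.5 against E9.5 EC (E10.5 EC replicate 2) and both steps in HE (E9.5 HE replicate 3). The cause of these shifts was not tested. Efnb1, Ephb2 and Ephb3 had at most 127 counts in a library, and their intervals span several-fold changes.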
